A study of Mus musculus with 2 samples.

Results

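Nephron progenitor nuclei were taken from whole mouse kidney as nuclei in which at least 3 of 8 progenitor marker genes (Eya1, Nell1, Bmper, Snap91, Six2, Cited1, Meox1 and Crym) had a unique molecular identifier (UMI, a counted RNA molecule). At most 1 of 5 genes of differentiating nephron, podocyte or endothelium (Lhx1, Wnt4, Jag1, Nphs1 and Flt1) could have a UMI. Of 27962 nuclei kept in both libraries, 2461 met this rule and are called progenitor nuclei here. At E18.5 they were 1959 of 18673 kept nuclei, or 10.5% (95% exact binomial interval 10.1 to 10.9). At P3 they were 502 of 9289, or 5.40% (4.95 to 5.88). Both shares and their ratio depended on the rule, with 4.42% and 1.31% for at least 4 markers, 6.23% and 1.98% for 0 excluded genes, 7.25% and 1.74% when Bmper was left out of the markers, and 5.404% and 4.33% for Eya1, Bmper and Snap91 each detected.

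Single-nucleus RNA sequencing was carried out on 2 libraries, 1 at each age. The E18.5 library held pooled male and female kidneys of genotype Mycf/f;Mycnf/f (no Cre) on a mixed strain background, that is, with floxed Myc and Mycn and no Cre recombinase. Whether the loxP sites alter Myc or Mycn was not tested. The P3 library held pooled male and female wild-type kidneys of strain C57BL/6J per the labels, whereas the methods of the study name a mixed background for both. Age, genotype, strain, library and counting software changed together and cannot be told apart, and with 1 library per age there was no test between ages. All intervals below cover counting error only. The E18.5 progenitor nuclei held 6981139 UMIs, with a median of 3431 per nucleus against 2904 in the other kept nuclei. The P3 progenitor nuclei held 2515785 UMIs, with a median of 4740 against 4304. Levels are given as CPM, the UMIs of a gene summed over a group of nuclei, divided by all UMIs of that group and scaled in the usual way.

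Nephron progenitors are the mesenchymal cells that cap the tips of the branching ureteric bud. They renew themselves under the transcription factor Six2 and its coactivator Eya1 and send Gdnf to the Ret receptor of the bud. Wnt signals from the bud induce part of them to form a pretubular aggregate that switches on Wnt4, Lhx1, Pax8 and Jag1 and becomes epithelium. In the mouse the pool is used up within days after birth.

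The rule drew on different markers at the 2 ages. Of the E18.5 progenitor nuclei, 57.8% carried exactly 3 markers, and of the P3 nuclei 75.7% did. A UMI of any of Six2, Cited1, Meox1 or Crym was found in 42.4% at E18.5 and in 15.7% at P3. Eya1 (a transcriptional coactivator and partner of Six2), Bmper (a secreted modulator of BMP) and Snap91 (a clathrin adaptor best known from neurons) were the exact combination in 23.5% at E18.5 and in 57.8% at P3. The excluded genes also weighed differently. Among kept nuclei with 3 or more markers, 14.5% at E18.5 and 40.2% at P3 were left out because they had 2 or more of the 5 excluded genes.

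**Figure D1:**
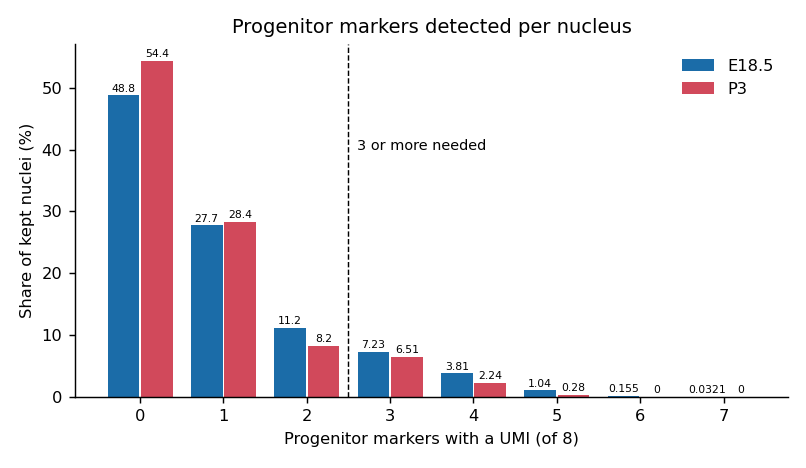
Share of kept nuclei (y axis, percent) by the number of the 8 progenitor markers with a UMI (x axis), for E18.5 (blue) and P3 (red). Most nuclei carried 0 or 1 marker, and the share with exactly 3 was 7.23% at E18.5 and 6.51% at P3.

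The markers themselves were chosen by the rule, so their levels are a description. Eya1 stood at 1565 CPM (interval 1535 to 1594) in progenitor nuclei at E18.5 and at 1642 CPM (1593 to 1693) at P3, against 150 and 133 CPM in the other kept nuclei. Snap91 stood at 746 and 855 CPM, and Bmper at 566 and 1174 CPM. Nell1, a secreted protein with EGF-like repeats, stood at 579 CPM at E18.5 and 182 CPM at P3. Six2 stood at 30.2 CPM (26.3 to 34.6) at E18.5 and 13.1 CPM (9.03 to 18.4) at P3, against 6.78 and 1.09 CPM in other nuclei. Cited1, a transcriptional coregulator of the least committed progenitors, stood at 45.0 CPM (40.1 to 50.2) at E18.5 and 3.18 CPM (1.37 to 6.27) at P3. Eya1 and Snap91 thus differed little between the ages, and the 4 markers Six2, Cited1, Meox1 and Crym were all lower at P3. In the other nuclei Six2, Cited1 and Crym were lower at P3 too, with Cited1 at 20.9 and 0.746 CPM and Crym at 13.1 and 6.02 CPM, and Meox1 stood at 3.45 and 2.91 CPM, a ratio whose interval of 0.661 to 1.07 holds 1. The relative ratio, the age ratio in progenitor nuclei over that in other nuclei, was above 1 for 5 of the 8 markers. Six2 and Cited1 were among these 5. Over all genes it was above 1 for 6163 of 10789, and the median log2 was 0.36 for the markers and 0.04 over all genes. It was at least 2-fold higher in 1 of 8 markers and lower in 2, beside 1.28% and 0.714% of all genes.

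The label was checked with each marker in nuclei chosen by the other 7 markers. At E18.5 the 1894 nuclei chosen without Six2 had 21.4 CPM of Six2 (18.1 to 25.2), against 8.06 CPM (7.30 to 8.89) in the remaining nuclei. Meox1 stood at 16.5 against 4.14 CPM and Crym at 46.1 against 15.6 CPM in the same kind of comparison. For Cited1 the difference was small, with 30.5 CPM (26.5 to 35.0) against 23.0 CPM (21.7 to 24.3). Cited1 also lay between 20.7 and 21.2 CPM in the stromal, endothelial and committing nuclei at E18.5. At P3 the 499 nuclei chosen without Six2 had 12.0004 CPM of Six2 (8.10 to 17.1) against 1.17 CPM (0.858 to 1.55). At P3 the nuclei chosen without Cited1, Meox1 or Crym had 1.60, 3.24 and 5.80 CPM of that gene, against 0.845, 3.10 and 6.75 CPM in the remaining nuclei, with overlapping intervals. At E18.5 Eya1, Nell1, Bmper and Snap91 were each higher in nuclei chosen without that gene, with Nell1 at 474 against 83.5 CPM. The same held at P3, where Nell1 stood at 124 CPM (109 to 139) against 57.8 CPM (55.5 to 60.2). A Nell1 UMI was found in only 22.1% of these P3 nuclei chosen without Nell1, against 9.73% of the remaining nuclei. At P3 the name therefore stands for nuclei with Eya1, Bmper and Snap91 and a low level of Six2. Cited1, Meox1 and Crym in them could not be told from the other nuclei.

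**Figure D2:**
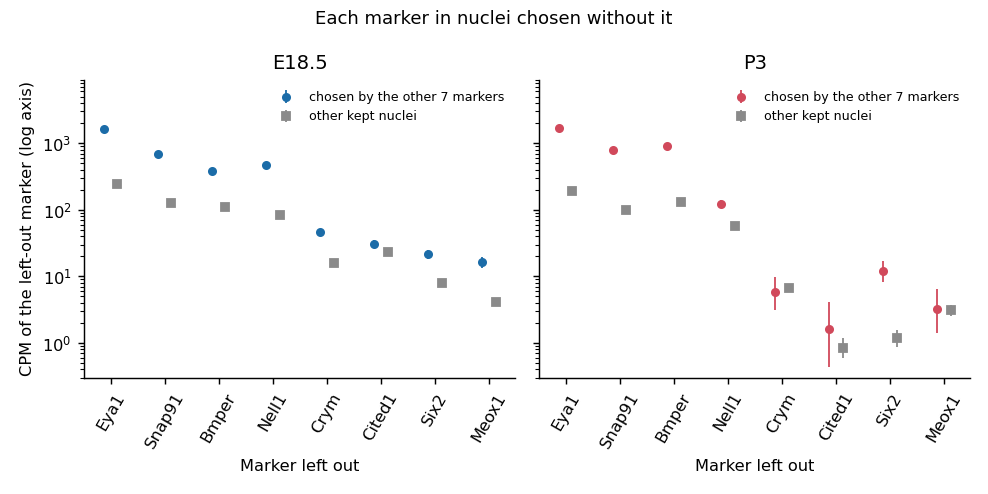
CPM of each marker (y axis, log scale) in nuclei chosen by at least 3 of the other 7 markers (circles, blue at E18.5 and red at P3) and in all other kept nuclei (grey squares), with 95% exact Poisson intervals. At P3 the circles of Crym, Cited1 and Meox1 lie at the grey squares, whereas that of Six2 lies at 12.0004 CPM, above 1.17 CPM.

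Wnt4, the signal that drives induced progenitors to epithelium, was the excluded gene met most often. A Wnt4 UMI was present in 13.8% of progenitor nuclei at E18.5 and in 37.1% at P3, and in 13.6% and 11.3% of endothelial nuclei, which had median depths of 2864 and 3424 UMIs. At 1000 UMIs per nucleus the shares in progenitor nuclei were 5.31% (4.36 to 6.396) and 15.3% (12.3 to 18.8). In nuclei chosen with at most 1 of the other 4 excluded genes, and so without regard to Wnt4, Wnt4 stood at 78.6 CPM (72.4 to 85.1) at E18.5, close to the 73.0 CPM (70.7 to 75.4) of the remaining nuclei. In the same way it stood at 264 CPM (248 to 281) at P3, against 62.4 CPM (59.99 to 65.0).

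Markers of other cell types were present in the progenitor nuclei, most of them below the other nuclei. The 8 endothelial markers summed to 218 CPM at E18.5 and 190 CPM at P3, against 629 and 754 CPM in the other nuclei. All 8 were at least 2-fold lower at both ages, where the share of all genes at least 2-fold lower was 7.04% at E18.5 and 6.16% at P3. The other nuclei include the endothelial nuclei, however. The same markers summed to 209 and 134 CPM in stromal nuclei and to 139 and 76.8 CPM in committing nuclei, classes that leave out endothelial nuclei. The sums of progenitor nuclei were not below these. The 10 stromal markers summed to 4455 and 4064 CPM in progenitor nuclei, against 4083 and 4133 CPM in the other nuclei. Meis2 made up 3052 and 2535 CPM of these sums, against 1895 and 2064 CPM in the other nuclei, and stood at 2388 and 2432 CPM in stromal nuclei and at 3798 and 4824 CPM in endothelial nuclei. Only the sum of the stromal list was thus near that of the other nuclei, since 4 of its 10 genes at E18.5 and 2 of 10 at P3 were at least 2-fold lower, with medians of -0.78 and -0.75 on the log2 scale. The 8 podocyte markers summed to 1053 and 994 CPM against 3387 and 2340 CPM, with Magi2 at 660 and 652 CPM, and the 10 ureteric markers summed to 264 and 201 CPM against 533 and 444 CPM. The 8 proximal tubule markers summed to 518 CPM at E18.5 and 1604 CPM at P3, against 1035 and 2779 CPM in the other nuclei and 765 and 1350 CPM in the committing nuclei described further on. The 8 markers of the loop and distal tubule summed to 206 and 352 CPM against 631 and 1196 CPM, the 8 of leukocytes to 36.8 and 39.4 CPM against 80.0 and 125 CPM, and the 8 erythroid genes to 750 and 139 CPM against 907 and 160 CPM. Slc34a1, the sodium phosphate transporter of the proximal tubule, had the most UMIs of its list at P3 in both groups, with 512 CPM in progenitor nuclei. Scrublet called 17.4% of progenitor nuclei doublets at E18.5 and 18.53% at P3, against 11.3% and 11.9% of the other nuclei. The libraries shared 52 barcode sequences among kept nuclei, and 0 of them was a progenitor nucleus in both. The part of other cells' RNA in the ratios between ages was not tested.

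Many progenitor genes outside the rule were higher in these nuclei than in the other kept nuclei at both ages. Of a list of 22 such genes, 19 passed the limit of a mean of 10 CPM at E18.5 and 13 of them were at least 2-fold higher in progenitor nuclei than in the other nuclei, with a list median of 1.27 on the log2 scale. The share over all 11109 genes was 2.4%. At P3 9 of 17 were at least 2-fold higher, with a list median of 1.07, and the share over 10711 genes was 3.26%. No gene of the list was at least 2-fold lower than in the other nuclei at either age. Against committing nuclei, 10 of 18 were at least 2-fold higher and 0 lower at E18.5, beside 326 and 561 of 10999 genes. At P3 5 of 17 were higher than in committing nuclei and 2 lower, beside 382 and 494 of 10685 genes. The members were chosen on the same nuclei, so these counts are a description, and the counts at the 2 ages were not compared by a test. Between ages, 1 of 19 genes of the list was at least 2-fold higher at P3 in progenitor nuclei and 4 were lower. The shares of all genes were 4.64% and 8.31%, and the list median was -0.46 on the log2 scale. The relative ratio was at least 2-fold higher in 2 of 19 and lower in 3, beside 1.28% and 0.714% of all genes. It was above 1 for 12 of 19, beside 6163 of 10789 genes, with median log2 values of 0.14 and 0.04.

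Pax2 and Wt1 had a larger ratio to other nuclei at P3 than at E18.5. Pax2, needed for every step of nephron formation, stood at 1212 CPM (1187 to 1239) at E18.5 and 2087 CPM (2031 to 2144) at P3, which was 3.22 and 4.43 times the level in other nuclei. Wt1, the zinc finger factor of progenitors and later of podocytes, stood at 699 CPM (679 to 719) and 1361 CPM (1316 to 1407), or 2.41 and 5.37 times the other nuclei. Both were higher in the P3 library by counting intervals that do not overlap and that hold no spread between libraries. Sall1 stood at 190 CPM and 139 CPM, Osr1 at 31.2 and 12.3 CPM, and Uncx at 266 and 168 CPM. Sall1, a zinc finger factor, and Osr1, an early mesenchymal factor, thus were lower at P3 in progenitor and in other nuclei alike. Osr1 was 4.80 times the other nuclei at E18.5 and 6.12 times at P3.

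Robo2 and Itga8 were far above the other nuclei at E18.5 and close to them at P3. Robo2 (chr16:73891839-74411825, minus strand, mm10), a receptor for Slit proteins that limits where Gdnf is made, stood at 5684 CPM (5629 to 5741) at E18.5 and 1002 CPM (963 to 1042) at P3. It was 3.91 times the other nuclei at E18.5 (3.86 to 3.96) and 1.17 times at P3 (1.13 to 1.22). Itga8, the integrin that binds nephronectin of the bud, stood at 798 CPM (777 to 819) and 432 CPM (406 to 458), or 2.91 and 0.892 times the other nuclei. Kif26b, a kinesin needed for compaction of the cap mesenchyme, stood at 1689 and 1330 CPM, or 4.07 and 1.94 times. Spock2, a secreted proteoglycan, went the other way relative to other nuclei, with 194 and 136 CPM and ratios of 5.45 and 9.52. Tmem100, a membrane protein, stood at 40.7 CPM (36.1 to 45.7) and 90.2 CPM (78.9 to 103).

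**Figure D3:**
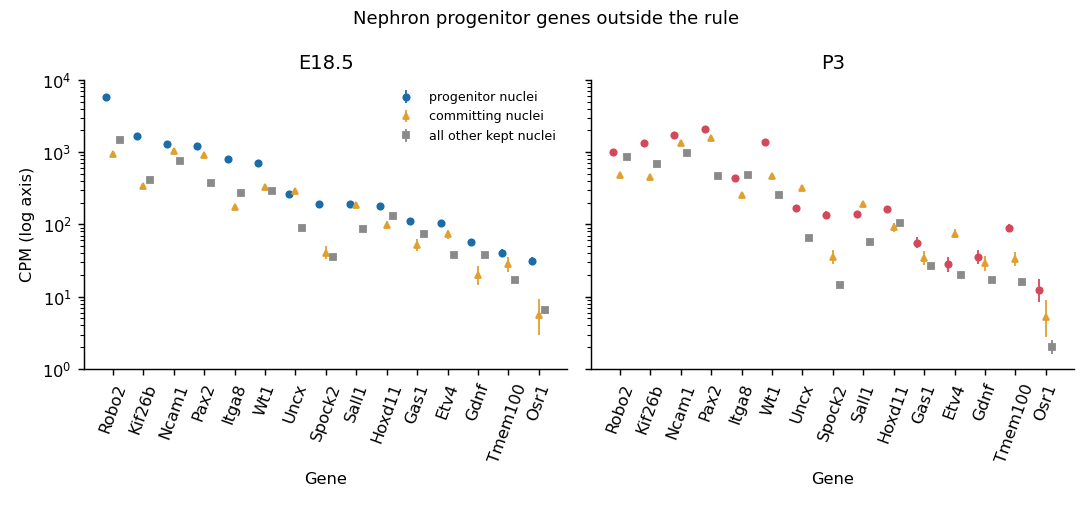
CPM (y axis, log scale) of 15 progenitor genes outside the rule in progenitor nuclei (circles, blue at E18.5 and red at P3), committing nuclei (orange triangles) and all other kept nuclei (grey squares), with 95% exact Poisson intervals. Robo2 lies at 5684 CPM at E18.5 and at 1002 CPM at P3, near the 853 CPM of other nuclei, whereas Wt1 and Pax2 are higher at P3.

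The step at the threshold of 3 markers differed by gene among nuclei with at most 1 excluded gene, of which 1681 at E18.5 and 541 at P3 had exactly 2 markers, just outside the rule, and 1133 and 380 had exactly 3. At E18.5 those with 2 markers had 2593 CPM of Robo2 and 659 CPM of Pax2, and those with exactly 3 had 4681 and 1222 CPM. At P3 those with 2 markers had 575 CPM of Pax2 and 407 CPM of Wt1, and those with exactly 3 had 1984 and 1297 CPM. Robo2 at P3 was 955 CPM (917.7 to 993) with 2 markers and 997 CPM (951 to 1043) with 3, with overlapping intervals. Itga8 at P3 was lower past the threshold, with 553 CPM (525 to 582) with 2 markers and 388 CPM (360 to 418) with 3. Spock2 at P3 stood at 22.04 CPM with 2 markers and 120 CPM with 3.

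The genes with the highest ratio to other nuclei are given next, and as the members were chosen on the same nuclei they are a description. At E18.5 the highest, the markers included, was the long noncoding RNA CJ186046Rik (chr17:85693629-85713028, plus strand), with 320 CPM (307 to 333) against 29.0 CPM. The start of Six2 (chr17:85684277-85688274, minus strand) lies 5355 bases away on the opposite strand. At P3 CJ186046Rik stood at 34.2 CPM (27.3 to 42.2) against 2.41 CPM. Dpp6, a subunit of potassium channels, was among the 12 highest at both ages, at 562 and 612 CPM. Others at E18.5 were Btbd11, Asic2, Cped1, Elavl4, Mdga2 and Cacnb4, between 147 and 2789 CPM. At P3 they were Slc26a7, Htr2a, Spock2, Cntn3, Dcc, Lsamp, Adam23 and Tmem132c, between 94.6 and 1322 CPM.

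The question of the comparison between ages was which genes differ between the nuclei that met the rule at E18.5 and at P3. The marker combinations and the share left out for excluded genes differed between the ages, so the ratios below also compare unlike selections. In progenitor nuclei 501 of 10789 genes were at least 2-fold higher at P3, or 4.64%, and 897 were at least 2-fold lower, or 8.31%. In the other kept nuclei 2.77% of 11070 genes were higher and 8.84% lower. Part of the difference was common to both groups and followed gene length. Genes under 10 kb had a median log2 ratio of -0.58 in progenitor nuclei and -0.67 in the other nuclei, and genes over 100 kb had 0.34 and 0.31. The ratio of the age ratio in progenitor nuclei to that in the other nuclei had medians of 0.14 and 0.03 for the same lengths. This relative ratio was at least 2 for 138 genes, or 1.28%, and at most 0.5 for 77 genes, or 0.714%. Under changes of the rule, of the UMI limit or of doublets these counts lay between 173 and 380 and between 69 and 296, so the 2 shares that stand beside the lists below hold for the rule as given. It rests on the same 2 libraries and has no replicate check.

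Several genes of nephron commitment were higher at P3 in progenitor nuclei, although the list as a whole was not. Of a list of 22, 13 passed the level limit in the comparison of ages, 5 were at least 2-fold higher and 2 at least 2-fold lower, where 4.64% and 8.31% of all genes did so, with a list median of -0.02 against -0.06 over all genes. The relative ratio was at least 2-fold higher in 1 of 13 and at least 2-fold lower in 0, beside 1.28% and 0.714% of all genes, with a median log2 of 0.11. Pax8, a paired box factor switched on at induction, stood at 177 CPM (167 to 187) at E18.5 and 489 CPM (462 to 517) at P3, with a relative ratio of 1.996 (1.84 to 2.17). Cdh6, a cadherin of the early nephron, stood at 180 CPM (170 to 190) and 413 CPM (388 to 439), with a relative ratio of 2.75 (2.53 to 2.998). Cdh4, a cadherin, stood at 332 CPM (319 to 346) and 1051 CPM (1011 to 1092), with a relative ratio of 1.91 (1.79 to 2.03). Lef1, a transcription factor of canonical Wnt signaling, stood at 38.4 CPM (33.9 to 43.3) and 94.6 CPM (83.0 to 107). All 4 were higher in the P3 library by counting intervals that do not overlap and that hold no spread between libraries.

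Committing nuclei, defined by at least 2 of Lhx1, Wnt4 and Jag1 and none of Nphs1 and Flt1, are set beside the progenitor nuclei. They numbered 706 at E18.5 and 487 at P3. They had 624 and 937 CPM of Pax8, 1078 and 778 CPM of Cdh6, and 435 and 1062 CPM of Cdh4. Their 8 markers of the loop and distal tubule summed to 577 CPM at E18.5 and 1113 CPM at P3, against 206 and 352 CPM in progenitor nuclei. This scale thus held tubule RNA and differed between the ages. Summed over all progenitor nuclei at P3, Cdh4 was thus at the level of committing nuclei, and Pax8 and Cdh6 were below it. Cdh4 was uneven among these P3 nuclei, with more in those with Wnt4 than in those without excluded genes, as given further on. Lef1 stood at 207 and 245 CPM in committing nuclei, above the progenitor nuclei at both ages. The relative ratio of Cdh4 was 1.23 without any excluded gene. Hes1, a Notch target, was lower at P3, with 61.7 and 20.7 CPM.

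Of 7 genes of the exchange between progenitors and bud, 1 (Slit2) was at least 2-fold higher and 1 (Gfra1) at least 2-fold lower at P3 in progenitor nuclei, beside 4.64% and 8.31% of all genes. The relative ratio was at least 2-fold higher in 0 and lower in 1, beside 1.28% and 0.714%, with a median log2 of -0.30. Slit2, the secreted ligand of Robo receptors, stood at 895 CPM (873 to 918) at E18.5 and 1905 CPM (1851 to 1959) at P3, against 779 and 840 CPM in other nuclei. Robo1 stood at 734 and 970 CPM. Gdnf stood at 56.4 CPM (51.0 to 62.3) and 35.8 CPM (28.8 to 44.0), which was 1.48 and 2.09 times the other nuclei. Gfra1, a coreceptor for Gdnf, stood at 323 CPM (310 to 336) and 105 CPM (93.0 to 119), with a relative ratio of 0.424 (0.371 to 0.484). In committing nuclei Gfra1 stood at 282 and 308 CPM. Gfra1 in progenitor nuclei at P3 was thus at the 110 CPM of other nuclei, whereas at E18.5 it was 2.27 times as high. The age ratio of Gdnf, 0.634, was 0.354 in nuclei without any excluded gene.

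Fgf signaling sustains the progenitors. Fgf1 stood at 225 CPM (214 to 236) at E18.5 and 64.0 CPM (54.5 to 74.7) at P3, which was 4.16 and 0.837 times the other nuclei. Fgf10 stood at 108 and 66.8 CPM and Fgf9 at 17.0 and 19.9 CPM, and Fgf20 was too low for a ratio at 5.44 and 5.96 CPM. The receptors Fgfr1, at 286 and 259 CPM, and Fgfr2, at 707 and 670 CPM, differed little. Among genes induced by the pathway, Etv4 stood at 106 CPM (98.1 to 113) and 28.2 CPM (22.04 to 35.6) and Etv5 at 64.7 and 32.6 CPM, while the inhibitor Spry1 stood at 32.5 CPM (28.4 to 37.0) and 52.1 CPM (43.5 to 61.8). Of 10 Fgf genes tested between ages, 0 were at least 2-fold higher and 1, Fgf1, was at least 2-fold lower, beside 4.64% and 8.31% of all genes, so that the count does not set the list apart. Etv4 was at 0.267 of its E18.5 level and is counted in the progenitor list. The relative ratio of Etv4, 0.505, was 0.890 with at least 4 markers.

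Of the genes that respond to BMP, Id1, Id2, Id3 and Smad9 are described first. Id1, Id2 and Id3 are inhibitors of differentiation factors and textbook BMP targets. Id1 stood at 64.7 and 65.2 CPM in progenitor nuclei, and at 91.8 and 45.5 CPM in the others. Id2 stood at 81.5 and 103 CPM, against 105 and 70.1 CPM. Id3 stood at 148 and 136 CPM, against 184 and 82.7 CPM. All 3 were thus below the other nuclei at E18.5 and above them at P3, with relative ratios of 2.03 (1.69 to 2.45), 1.89 (1.62 to 2.20) and 2.04 (1.80 to 2.32). Smad9, a transducer and target of BMP signals, stood at 24.4 CPM (20.8 to 28.3) and 47.3 CPM (39.2 to 56.6), with a relative ratio of 2.92 (2.22 to 3.85) that was 1.80 without any excluded gene. The ligand Bmp7 stood at 54.4 CPM (49.1 to 60.2) and 22.7 CPM (17.2 to 29.4), and Bmp4 at 25.8 and 39.0 CPM. Of 12 BMP genes tested between ages, 0 were at least 2-fold higher and 1, Bmp7, was at least 2-fold lower, beside 4.64% and 8.31% of all genes. A relative ratio of at least 2 was found in 3 of 12, beside 1.28% of all genes. It was above 1 in 6 of 12, beside 6163 of 10789 genes, with median log2 values of 0.14 and 0.04.

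For Wnt receptors and responses, 20 of 23 genes could be compared between ages, of which 0 were at least 2-fold higher and 3 at least 2-fold lower, beside 4.64% and 8.31% of all genes, with a median of 0.16. The relative ratio passed 2-fold in 0 genes of this list in either direction. Rspo1, an amplifier of Wnt signaling made by progenitors, stood at 88.8 and 41.3 CPM, and Rspo3 at 74.6 and 31.8 CPM. Tafa5 stood at 116 and 184 CPM, against 25.5 and 40.1 CPM in other nuclei. Axin2, a target of canonical Wnt signaling, stood at 18.9 CPM (15.8 to 22.4) and 17.9 CPM (13.0 to 23.9), with overlapping intervals. Lgr5 stood at 15.3 and 4.37 CPM in progenitor nuclei and at 127 and 70.3 CPM in committing nuclei.

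**Figure D4:**
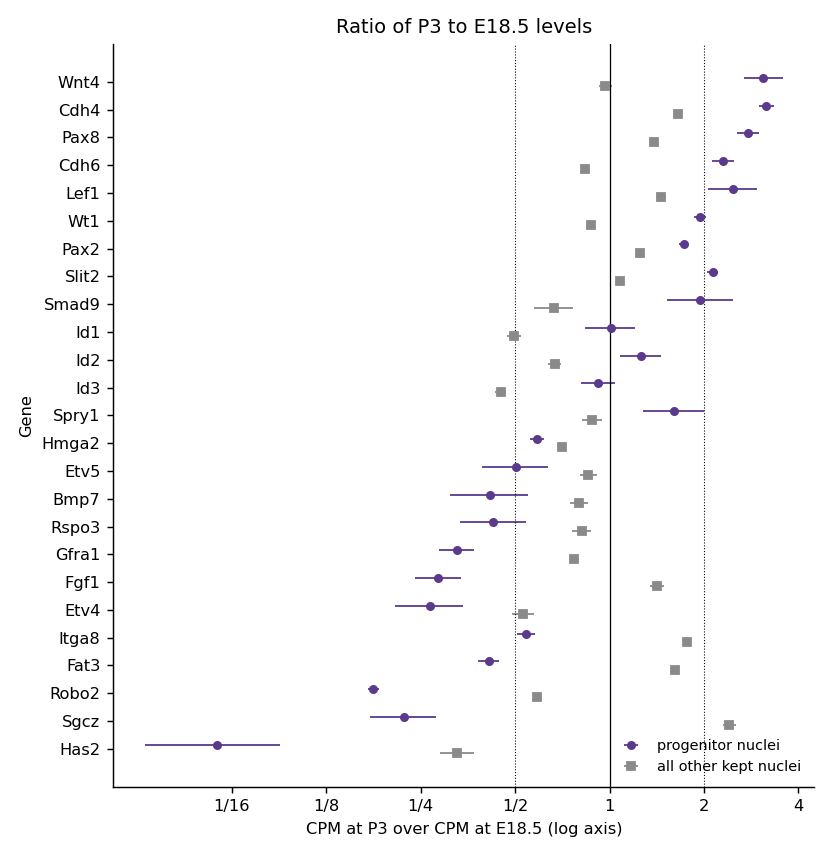
Ratio of CPM at P3 to CPM at E18.5 (x axis, log scale) for 25 named genes (y axis) in progenitor nuclei (purple circles) and in all other kept nuclei (grey squares), with 95% exact conditional intervals and dotted lines at 2-fold. Cdh6 and Wt1 lie to the right of 1 in progenitor nuclei and to the left of it in other nuclei. Fgf1, Itga8, Fat3 and Sgcz do the reverse. Wnt4, which the rule itself limits, lies to the right in progenitor nuclei and at 1 within its interval in the others.

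The genes with the highest relative ratio were Tmem132c, Slc26a7, Scube3, Htr2a, Lsamp, Tmcc3, the excluded gene Wnt4 and Ryr3. The rule itself limits Wnt4, so its place here is a description. Tmem132c stood at 15.2 CPM (12.4 to 18.4) at E18.5 and 94.6 CPM (83.0 to 107) at P3, against 12.01 and 12.7 CPM in the other nuclei. Slc26a7, an anion exchanger, stood at 54.4 and 147 CPM, against 22.02 and 12.7 CPM. Htr2a, a serotonin receptor, stood at 11.0 CPM (8.70 to 13.8) and 98.2 CPM (86.3 to 111), against 4.35 and 9.52 CPM. Lsamp, a neural adhesion molecule, stood at 382 CPM (368 to 397) and 1322 CPM (1277 to 1367), against 190 and 170 CPM. In Tmem132c, Htr2a and Lsamp the level of the other nuclei thus differed less between ages than that of the progenitor nuclei, and in Slc26a7 the other nuclei were lower at P3 where the progenitor nuclei were higher. Across 7 alternatives each, the relative ratio lay between 6.00 and 9.83 for Tmem132c, between 3.70 and 5.79 for Slc26a7, between 2.65 and 5.64 for Htr2a and between 2.91 and 5.68 for Lsamp.

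The genes with the lowest relative ratio were Sgcz, Has2, Fgf1, Mgat4a, Fat3, Robo2, Itga8 and the marker Nell1. Sgcz, a sarcoglycan, stood at 139 CPM (130 to 148) at E18.5 and 30.6 CPM (24.2 to 38.3) at P3, while in the other nuclei it stood at 52.1 and 125 CPM. Has2, which makes hyaluronan, stood at 128 CPM (120 to 137) and 7.15 CPM (4.24 to 11.3), against 23.6 and 7.71 CPM. Fat3, an atypical cadherin, stood at 725 and 298 CPM, against 277 and 449 CPM. Mgat4a, a glycosyltransferase, stood at 140 and 36.6 CPM, against 44.9 and 58.4 CPM. In Sgcz, Has2, Fat3 and Mgat4a the progenitor nuclei were above the other nuclei at E18.5. At P3 Sgcz, Fat3 and Mgat4a were below them, and Has2 could not be told from them. The relative ratio lay between 0.0621 and 0.127 for Sgcz and between 0.112 and 0.426 for Has2 across 7 alternatives each.

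The largest plain ratios between ages were in part shared with all nuclei. Gm19951, a long noncoding RNA, stood at 8.74 and 139 CPM in progenitor nuclei and at 11.8 and 132 CPM in the others. The tubule genes Pck1, Agxt2 and Hnf4aos were also among the 10 highest, with 128, 93.4 and 110 CPM at P3 against 245, 157 and 200 CPM in the other nuclei. On the low side Ifitm3 stood at 107 and 15.5 CPM, Fabp4 at 209 and 35.4 CPM and S100a10 at 122 and 24.6 CPM, ratios of 0.144, 0.169 and 0.202, beside 0.158, 0.229 and 0.264 in the other nuclei. Hemoglobin Hbb-bs stood at 439 and 60.02 CPM in progenitor nuclei and at 538 and 71.0 CPM in the others.

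Of 16 fetal growth genes compared between ages, 0 were at least 2-fold higher and 4 at least 2-fold lower at P3 in progenitor nuclei, beside 4.64% and 8.31% of all genes, with a median log2 ratio of -0.46. In the other nuclei 0 of 15 were higher and 3 lower, beside 2.77% and 8.84% of all genes, with a median of -0.51. A relative ratio of at least 2 was found in 2 of 16, beside 1.28% of all genes, and these were H19 with 2.35 and Dlk1 with 3.48. Hmga2, a chromatin protein of fetal cells, stood at 1147 CPM (1122 to 1172) at E18.5 and 672 CPM (640.1 to 705) at P3, and at 362 and 255 CPM in other nuclei. Igf2 stood at 85.4 and 22.7 CPM and H19, the noncoding RNA beside it, at 94.5 and 48.9 CPM, against 105 and 23.1 CPM of H19 in other nuclei. Mycn stood at 26.2 CPM (22.6 to 30.3) and 29.8 CPM (23.4 to 37.4), with 18.2 and 10.8 CPM in other nuclei, and Myc at 21.2 and 6.36 CPM, with 14.0 and 3.13 CPM. Of 16 glycolysis genes compared 9 were at least 2-fold lower at P3 in progenitor nuclei and 10 in the other nuclei, beside 8.31% and 8.84% of all genes, and the median relative log2 ratio was 0.10. The ratios between ages followed gene length in both groups, and the list was not matched to all genes by length. Pgk1, for example, stood at 92.1 and 32.2 CPM in progenitor nuclei and at 111 and 33.8 CPM in the others. Of 18 genes of fatty acid oxidation 4 were at least 2-fold higher and 1 lower in each group, beside 4.64% higher and 8.31% lower over all genes in progenitor nuclei and 2.77% and 8.84% in the others, and the list medians were 0.14 and -0.03. Cpt1a, which admits fatty acids to mitochondria, stood at 23.5 and 67.6 CPM, against 26.2 and 88.9 CPM.

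The levels of S and G2/M gene lists were compared after each nucleus was thinned to 1000 UMIs, and a share past a limit on these UMIs measures the level of the list and not the share of dividing nuclei. At least 2 S list UMIs were found in 63.5% (61.3 to 65.6) of progenitor nuclei at E18.5 and in 50.6% (46.1 to 55.1) at P3. The other nuclei had 54.4% and 36.0%, and the committing nuclei 66.1% and 62.2%. At least 5 G2/M list UMIs were found in 31.3% (29.2 to 33.4) and 16.9% (13.8 to 20.5) of progenitor nuclei, in 33.3% and 15.7% of other nuclei and in 42.8% (39.1 to 46.5) and 31.8% (27.7 to 36.2) of committing nuclei. Without thinning, the S shares of progenitor nuclei were 96.2% and 94.4% and the G2/M shares 91.7% and 81.9%. Progenitor nuclei thus exceeded the other nuclei on the thinned S share at both ages, and lay below committing nuclei on the thinned G2/M share at both ages. Gene by gene, 0 of 43 S genes at E18.5 and 3 of 40 at P3 were at least 2-fold higher than in the other nuclei, beside 2.4% and 3.26% of all genes, with medians of 0.32 and 0.42 on the log2 scale. Of the G2/M genes 0 of 52 and 0 of 47 were, with medians of 0.07 and 0.04.

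**Figure D5:**
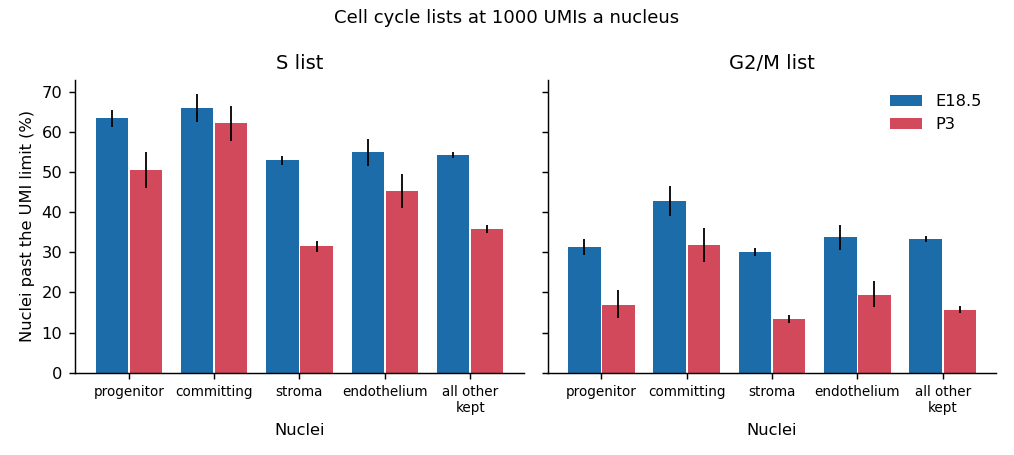
Share of nuclei (y axis, percent) with at least 2 S list UMIs (left) or 5 G2/M list UMIs (right) at 1000 UMIs per nucleus, by group of nuclei (x axis), at E18.5 (blue) and P3 (red), with 95% exact binomial intervals. The G2/M share of progenitor nuclei was 31.3% at E18.5 and 16.9% at P3, beside 42.8% and 31.8% in committing nuclei.

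Progenitor nuclei with Wnt4 as their excluded gene were set beside those with 0 excluded genes. The split was chosen after the values of Wnt4 had been seen and uses a gene of the rule, so it is a description. The nuclei with Wnt4 were deeper, with medians of 3723.5 against 3309 UMIs at E18.5 and 5103 against 4485 at P3, so the split was also made with the excluded genes read at 1000 UMIs per nucleus. At E18.5 the 270 nuclei with Wnt4 had 2.37 times the Lef1 (1.75 to 3.18) and 1.61 times the Cdh4 (1.45 to 1.79) of the 1163 without, and 2.34 and 1.896 times at 1000 UMIs. They had 1.77 times the Cdh6 (1.52 to 2.06) and 1.41 times the Pax8 (1.20 to 1.65), which became 1.20 (0.936 to 1.52) and 1.08 (0.831 to 1.38) at 1000 UMIs, intervals that hold 1. Robo2 was at 0.627, Rspo3 at 0.558 and Bmp7 at 0.544 times, and at 1000 UMIs at 0.558, 0.586 and 0.649 times, the last with an interval of 0.342 to 1.13. Over 10807 genes, 0.768% were at least 2-fold higher and 0.583% lower. At P3 the 186 nuclei with Wnt4 had 2.47 times the Cdh4 (2.24 to 2.73) of the 184 without, and 2.19 times at 1000 UMIs. Gdnf was at 2.49 times (1.45 to 4.45) and Itga8 at 1.35 times (1.17 to 1.56), which became 1.20 (0.638 to 2.12) and 1.03 (0.867 to 1.23). Lef1 was at 1.01 times (0.720 to 1.42), at 0.763 times (0.471 to 1.18) at 1000 UMIs and at 1.70 times (1.07 to 2.76) without called doublets. Over 10465 genes, 2.64% were at least 2-fold higher and 4.5% lower. Lef1, Robo2 and Rspo3 at E18.5 and Cdh4 at both ages thus kept intervals apart from 1 at 1000 UMIs, and the other ratios given here did not. At that depth 104 nuclei at E18.5 and 77 at P3 had a Wnt4 UMI, with median depths of 3485 against 3425.5 and 3819 against 4882.5 UMIs.

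At P3 the nuclei with 0 excluded genes held more tubule RNA than those with Wnt4. Their 8 proximal tubule markers summed to 2045 CPM (1951 to 2143), against 839 CPM (782 to 899) in the nuclei with Wnt4 and 2120 CPM (2013 to 2231) in the 132 nuclei with another excluded gene. At E18.5 the same proximal tubule sums were 536, 574 and 454 CPM. The G2/M share at P3 was 8.15% (4.63 to 13.1) with 0 excluded genes and 23.1% (17.3 to 29.8) with Wnt4, and at E18.5 it was 30.7% (28.1 to 33.4) and 35.6% (29.8 to 41.6). The part of tubule RNA in these P3 values was not tested.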

How the data were processed

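Nuclei of whole kidneys were sequenced with 10x Genomics chemistry. The authors deposited raw counts of UMIs for 32285 genes in each barcode, with no normalization. The submitters' processing notes name Cell Ranger 5.0.1 and build mm10 for both libraries, whereas the header of the E18.5 matrix gives 7.0.0 and that of the P3 matrix 5.0.1. Whether intronic reads were counted is not given in the sources used here.

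Barcodes with 1000 to 6000 UMIs at E18.5 or 1000 to 10000 UMIs at P3 and at most 0.6% mitochondrial UMIs were kept, 18673 of 21600 and 9289 of 12216. At E18.5, 423 fell below the limit, 2307 above it and 197 failed on mitochondrial UMIs alone, and at P3 1233, 1573 and 121. Scrublet (scanpy 1.11.5, expected rate 0.1) marked doublets, which were not removed. Stromal nuclei had at least 4 of 10 markers and endothelial nuclei at least 3 of 8, and a nucleus of several classes belonged to none. "Other kept nuclei" are all that did not meet the progenitor rule.

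Summed counts of a group gave CPM, and the ratio of each pair of groups has a 95% interval from the exact binomial distribution given the total. Ratios of ratios have normal intervals on the log scale. Genes needed a mean of 10 CPM over the groups compared. A difference was counted when it was 2-fold or more. Named genes are those of the lists and, among genes with a mean of at least 50 CPM, the 12 highest ratios to other nuclei per age, the 10 highest and 10 lowest ratios between ages and the 8 highest and 8 lowest relative ratios. Python 3.11.15, numpy 2.4.6, scipy 1.17.1, pandas 2.3.3 and matplotlib 3.10.9 were used, with cell cycle lists from Seurat 5.3.0 and coordinates from GENCODE M21 (32235 genes found). In simulated data for the ratio between ages, 190 of 200 planted genes and 10172 of 10589 unchanged genes had intervals holding the true ratio. The simulated counts were Poisson draws, as the intervals assume. They check the calculation only and hold no spread between nuclei or libraries. The members and the gene lists were chosen with earlier results of these data known. Alternatives were other marker numbers, no excluded gene, removal of doublets, a 6000-UMI limit, the rule at 1000 UMIs, another scaling and other level limits. The alternatives with Eya1, Bmper and Snap91 each detected, and with any number of excluded genes, were chosen after seeing the data. Some genes of the lists are counted but not reported here by name.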

Additional observations from a re-analysis of the deposited data

Results flagged for a closer look

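Barcodes above the upper UMI limit were not used in any comparison. Of these, 428 at E18.5 and 101 at P3 also met the marker rule. Sgcz differed between ages in opposite directions, with 139 and 30.6 CPM in progenitor nuclei at E18.5 and P3 and 52.1 and 125 CPM in the other kept nuclei, a relative ratio of 0.0919. With 1 library per age the difference was not tested.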

How the results depend on the processing

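No paired analysis was possible because each age has 1 library and no test was made. The share of progenitor nuclei stayed higher at E18.5 than at P3 under every alternative run. With at least 4 markers it was 4.42% at E18.5 and 1.31% at P3, with 0 excluded genes 6.23% and 1.98%, with the rule applied at 1000 UMIs 3.84% and 2.61%, with Eya1, Bmper and Snap91 all detected 5.404% and 4.33%, and with any number of excluded genes 12.3% and 9.03%. Without called doublets it was 9.84% at E18.5. With Eya1 left out of the markers it was 4.84% and 1.53%, without Nell1 7.95% and 4.72%, without Bmper 7.25% and 1.74%, without Snap91 5.46% and 1.70%, and at E18.5 without Cited1 9.92% and without Crym 9.85%.

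Counts of genes past 2-fold differed with the level limit and with the rule. With a mean of at least 50 CPM, 183 genes were higher and 332 lower at P3 in progenitor nuclei, 52 and 31 by the relative ratio, 146 and 257 in progenitor over other nuclei at E18.5, and 154 and 214 at P3. With a mean of at least 1 CPM the same counts were 1355 and 1940, 873 and 608, 611 and 1775, and 946 and 1800. By the relative ratio the counts were 380 higher and 296 lower with at least 4 markers, 333 and 210 with 0 excluded genes, 235 and 116 without doublets, 214 and 136 with a limit of 6000 UMIs at both ages, and 341 and 264 with the rule at 1000 UMIs. In progenitor over other nuclei at P3, 532 were higher and 1086 lower with at least 4 markers, 548 and 1289 with the rule at 1000 UMIs, 1021 lower without doublets and 1052 lower with the limit of 6000 UMIs.

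With at least 3 S list and 7 G2/M list UMIs, the S shares of progenitor nuclei were 44.1% at E18.5 and 31.3% at P3 and the G2/M shares 16.7% and 9.76%. The G2/M share was 25.7% at E18.5 with the rule at 1000 UMIs, and at P3 8.15% with 0 excluded genes and 23.7% with any number, where the S share was 55.2%. With Eya1, Bmper and Snap91 all detected, the log2 relative ratio of Btbd11 turned to 0.019 and the log2 ratio of Cited1 to other nuclei at E18.5 to -0.0027. The log2 ratio of Crym to other nuclei at P3 turned to -0.98 under the same rule and to -1.42 with the rule at 1000 UMIs. Jag1 and Lhx1 turned to 0.35 and 0.50 at P3 with any number of excluded genes, which the rule itself otherwise limits. Rnf43 turned to -0.39 and -2.27 at P3, in nuclei with 1 excluded gene and with Wnt4 over those with 0, when excluded genes were read at 1000 UMIs. The causes were not tested. Of 10961 gene values under alternatives, 8955 stayed past 2-fold or within their counting interval, 1998 did not, and 8 that were past 2-fold changed direction.

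With 1 library per age, intervals cover counting error only, and no value separates age from genotype, strain, library or software. Low genes such as Cited1, Meox1, Crym and Six2 at P3 rest on few UMIs, and RNA from other cells was not removed.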
